A study of Drosophila melanogaster with 6 samples.

Results

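PARP1 knockdown (PARP1 KD) was compared with untreated control in S2 cells of *Drosophila melanogaster*, gene by gene across the transcriptome. The comparison used 4 of the 6 RNA-seq libraries of the series, namely 2 libraries of cells given double-stranded RNA (dsRNA) against *Parp1* and 2 libraries of cells given nothing. The other 2 libraries came from cells given the PARP inhibitor PJ34 (10 and 0.3 µM) and took no part in the fit. Transcript levels were deposited as FPKM (fragments per kilobase of transcript, scaled to the number of mapped fragments in the library), which were summed over the transcripts of each gene. Of 14012 genes, 7308 had a mean of at least 1 FPKM over the 4 libraries and were tested. All libraries were from S2-DRSC cells of passages 10 to 15, a line of late embryonic origin kept in Schneider's medium with 10% FCS. The labels give dsRNA amounts of 100 and 500, in nanograms in the titles and in micrograms in the treatment field, and the columns of the table do not say which library had which amount. The 2 PARP1 KD libraries were therefore taken as replicates of 1 group. The controls received no dsRNA, so a response to dsRNA as such and a response to the loss of PARP1 cannot be told apart.

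PARP1 is a nuclear enzyme that uses NAD to build chains of ADP-ribose on itself, on histones and on other chromatin proteins. In *Drosophila* it is known from heat shock loci, where it takes part in the loosening of chromatin upon activation, and from immune gene induction and heterochromatin. Parg removes the chains again, and tankyrase (*Tnks*) is the other enzyme of the family in the fly. S2 cells resemble hemocytes, the blood cells of the fly, which engulf particles and respond to bacterial cell wall through the Imd and Toll pathways.

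The depth of the libraries, read from the steps between low FPKM values, lay between 0.882 and 1.10 times that of control 1. All 12 hemocyte markers listed for the S2 line were above 1 FPKM. Of the markers of other cell types, 0 of 10 fat body genes and 0 of 11 cuticle genes were above that level, against 2 of 9 neuronal, 2 of 10 muscle and 2 of 8 germline genes. The 2 controls were less alike than the 2 knockdowns. The PARP1 KD libraries differed from each other by 2-fold or more in 12 genes, whereas the controls did so in 1808. Differences from each control alone are therefore also given for the results that turn on them. All differences are of log2(FPKM + 1), PARP1 KD minus control, a scale that understates the change of low genes. Adjusted p-values are from limma with Benjamini-Hochberg adjustment over the 7308 genes, and they measure the spread between these libraries only. A gene that limma did not call is not thereby shown to be unchanged.

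The knockdown was checked first on *Parp1* (CG40411, 3RHet:1768645-2027212 in the dm3 build). It had 16.7 and 10.2 FPKM in the PARP1 KD libraries, against 51.6 and 29.9 FPKM in the controls. Both PARP1 KD libraries were below both controls. The mean was 13.5 ± 4.58 FPKM in PARP1 KD and 40.8 ± 15.4 FPKM in control (SD, n = 2 each), 66.9% lower. The log2 difference was -1.51 (SE 0.45), and its limma adjusted p of 0.0644 missed the threshold of 0.05, with an unadjusted p of 0.00142. Against control 1 alone the difference was -1.90 (adjusted p = 0.000296), and against control 2 alone it was -1.13 (adjusted p = 0.125). In these fits the spread came from the 2 PARP1 KD libraries alone, and the lone control was assumed to vary like them. After the correction for transcript length described below it was -0.97. The difference lay in the transcript CG40411-RB, which had 6.29 and 2.09 FPKM in PARP1 KD, against 51.3 and 24.7 FPKM in control. Transcript CG40411-RC went the other way, with 9.68 and 7.78 FPKM in PARP1 KD, against 1.23e-05 and 4.01 FPKM in control. The span of *Parp1* overlaps 10 other genes of the table, introns included, so its value is uncertain.

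The other genes of ADP-ribose turnover did not pass the test. *Tnks* had 2.85 and 2.57 FPKM in PARP1 KD, against 6.71 and 3.27 FPKM in control, a difference of -0.63 (limma adjusted p = 0.619) that became 0.02 after length correction. *Parg* had 5.19 and 3.63 FPKM in PARP1 KD, against 8.71 and 4.27 FPKM in control, and the groups overlapped.

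Across all genes, lower levels in PARP1 KD were more frequent than higher levels. Limma called 122 of 7308 genes at an adjusted p under 0.05 (1.67%), 19 higher (0.26%) and 103 lower (1.41%). Of these, 15 higher and 98 lower genes had groups that did not overlap, and 9 had overlapping groups. At an unadjusted p under 0.05 there were 979 genes (13.4%), 111 higher (1.52%) and 868 lower (11.9%). Both PARP1 KD libraries lay above both controls in 782 genes (10.7%) and below both in 2545 genes (34.8%). A difference of at least 2-fold was found in 81 genes that were higher (1.11%) and 693 that were lower (9.48%). The median difference over all genes was -0.29. This balance depended on the scaling. When each library was centred on its own median, which moved the median difference by 0.39, 479 of the 854 genes at an unadjusted p under 0.05 were higher. After quantile normalization 374 of 854 were higher, and after length correction 297 of 790. Under each of these 3 scalings limma called 0 genes after adjustment.

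The differences followed transcript length. Genes under 500 bases had a median difference of 0.17 and genes over 4000 bases one of -0.62. The trend belonged mostly to control 1. Against control 1 alone the medians ran from 0.35 in the shortest genes to -1.10 in the longest, and against control 2 alone from 0.09 to -0.18. Between the controls themselves, control 2 minus control 1 ran from 0.18 to -0.97. Long transcripts were thus relatively abundant in control 1. For this reason the deviation of each library from the gene's mean log2(FPKM + 1) over the 4 libraries was taken. A smooth curve of this deviation on length was removed from each library in turn, which was possible for the 7086 genes with a known length. After this correction the median difference was 0.02, with 1681 genes higher (23.7%) and 1765 genes lower (24.9%) without overlap. The correction also brings the libraries to a common level, so this median and the balance of these counts follow largely from the procedure.

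**Figure D1:**
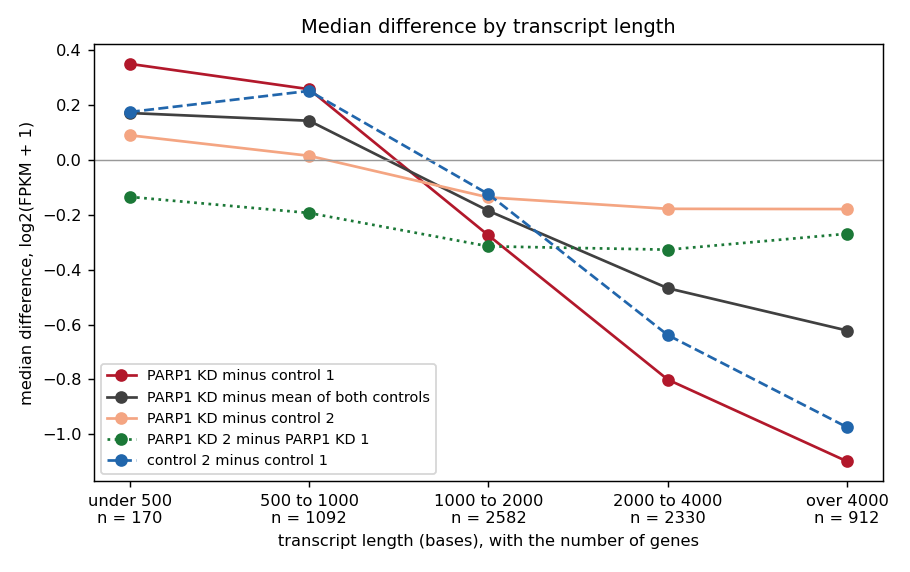
Median difference in log2(FPKM + 1) by transcript length (bases, x axis, with the number of genes), for PARP1 KD minus each control, PARP1 KD minus the mean of both controls, and the 2 pairs of replicates. The line against control 1 falls to -1.10 in genes over 4000 bases and runs close to the line between the controls, which falls to -0.97, whereas the line against control 2 stays between 0.09 and -0.18.

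A smaller set of genes differed from each control and beyond the length trend. These genes had no overlap between the groups and were at least 2-fold different, in the same direction, from control 1 alone, from control 2 alone and after length correction. There were 16 such genes higher (0.226%) and 111 lower (1.57%), and 81 of these 127 genes were also called by limma, 10 higher and 71 lower. The threshold of 1 on the log2 scale was just met by *Nhe1* (smallest of its 3 differences, 1.0017) and just missed by *lms* (0.91) among higher genes. Among lower genes it was just met by *olf186-M* (-1.0005 after length correction) and just missed by *roq* (-0.9998 after length correction). The median transcript length was 1252 bases in the 16 higher genes, 2347 bases in the 111 lower genes and 1852 bases in all genes tested.

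**Figure D2:**
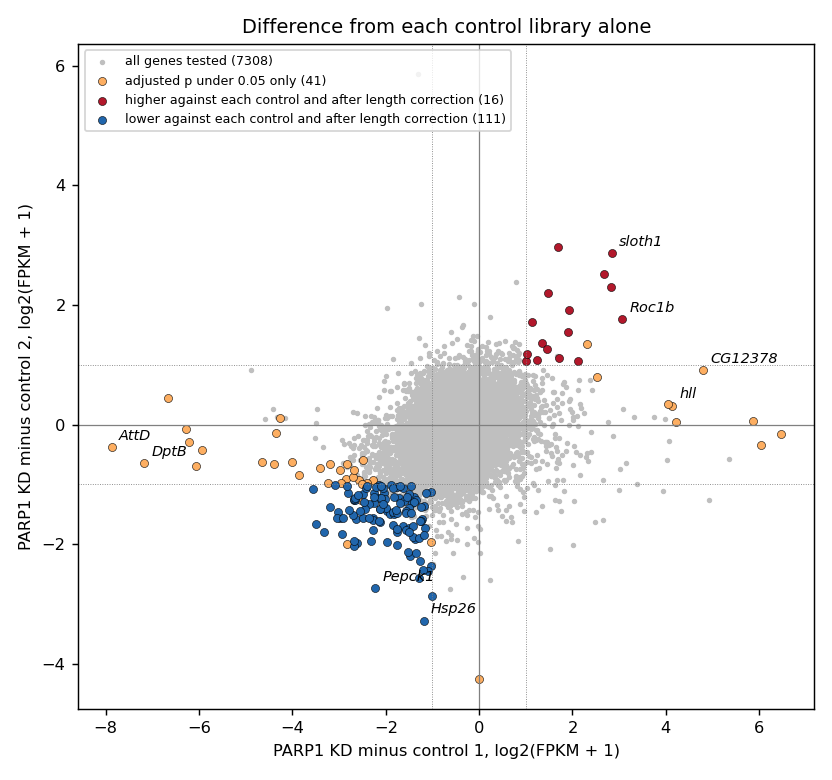
PARP1 KD minus control 1 (x axis) against PARP1 KD minus control 2 (y axis), in log2(FPKM + 1), for all 7308 genes, with dotted lines at a 2-fold difference. Red and blue points are the 16 higher and 111 lower genes that differed from each control and after length correction, and orange points are the 41 other genes that limma called, among them *AttD*, *DptB*, *hll* and *CG12378*, which lie along the x axis because only control 1 stands apart.

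Among the 16 higher genes the largest difference outside shared loci was that of *CG7299* (2L:10683760-10684407). It had 19.4 and 24.7 FPKM in PARP1 KD, against 2.25 and 3.65 FPKM in control, 7.47 times as high on average. The log2 difference was 2.56 (SE 0.49, limma adjusted p = 0.00245), and it was 2.45 after length correction. *CG9119* had 18.7 and 17.5 FPKM in PARP1 KD, against 4.91 and 1.44 FPKM in control (2.33, adjusted p = 0.0071). Neither gene overlaps another gene of the table, and in both the lower PARP1 KD library was more than 2-fold above the higher control. *CG18557* had 95.8 and 101 FPKM in PARP1 KD, against 22.0 and 46.7 FPKM in control (1.59, adjusted p = 0.0288). *Msr-110* had 191 and 183 FPKM in PARP1 KD, against 56.1 and 86.2 FPKM in control (1.41, adjusted p = 0.037), and was the most abundant of the 16.

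Other genes of the 16 encode proteins of known role but were not called. They were picked after their values were seen. *Ucp4B*, an uncoupling protein of the inner mitochondrial membrane, had 6.11 and 7.39 FPKM in PARP1 KD, against 2.81 and 2.42 FPKM in control (1.10, limma adjusted p = 0.281). *Ant2*, an exchanger of ADP and ATP across that membrane, had 6.16 and 6.69 FPKM in PARP1 KD, against 1.94 and 1.89 FPKM in control (1.35, adjusted p = 0.137). The locus of *Ant2* is shared with the far more abundant exchanger *sesB*, which had 489 and 361 FPKM in PARP1 KD, against 712 and 408 FPKM in control. *Nhe1*, a sodium and proton exchanger, had 57.2 and 55.4 FPKM in PARP1 KD, against 27.6 and 26.4 FPKM in control (1.03, adjusted p = 0.218), and its sum with the overlapping *Creld* differed by 0.17. *Spn88Eb*, a serine protease inhibitor, had 3.37 and 3.62 FPKM in PARP1 KD, against 0.892 and 1.13 FPKM in control (1.16, adjusted p = 0.197). The lack of overlap and the 2-fold difference from each control were conditions for entry to the 16, so they are no further evidence for these 4 genes. The test did not call them.

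Several of the largest increases were in genes that share their place with another gene, and there the sum over the place was also examined. This sum was added after the data were seen. *sloth1* (X:6905522-6906169) encodes a small mitochondrial protein and is made from the same transcript as *sloth2*, within whose span it lies. It had 4.72 and 8.36 FPKM in PARP1 KD, against 0.0175 and 0.000551 FPKM in control (2.86, limma adjusted p = 0.000309). *sloth2* had 21.3 and 14.9 FPKM in PARP1 KD, against 14.5 and 22.4 FPKM in control, and the sum of both differed by 0.43. *CG34219* had 4.90 and 5.82 FPKM in PARP1 KD, against 1.51e-07 and 0.103 FPKM in control (2.59, adjusted p = 0.000958), and the sum with its 2 neighbours differed by 0.47. *CG30503*, inside *kappaB-Ras*, had 1.92 and 3.90 FPKM in PARP1 KD, against 3.19e-15 and 4.49e-08 FPKM in control (1.92, adjusted p = 0.00934), and the sum differed by 0.22. *sloth1*, *CG34219* and *CG30503* were below 1 FPKM in both controls, so they passed the filter through the PARP1 KD libraries alone. Their entry to the test thus rested on the group in which they were high. *IP3K1*, a kinase of inositol trisphosphate, had 65.9 and 94.6 FPKM in PARP1 KD, against 20.4 and 26.3 FPKM in control (1.73, adjusted p = 0.018). Its sum with the overlapping hairpin RNA gene *hpRNA:CR18854* differed by -0.11. *Phk-3*, which overlaps *CG3776* by 19 bases, had 8.37 and 12.7 FPKM in PARP1 KD, against 3.10 and 1.47 FPKM in control (1.83, adjusted p = 0.037), and the sum differed by 0.02. In these 5 places the sum differed far less than the called gene. A more abundant partner weighs more in such a sum, which alone makes its difference small. Whether reads were shared out differently between the genes was not tested. For *CG7071*, which was not called (1.42, adjusted p = 0.129), the sum differed by -0.21. *Roc1b*, a RING subunit of ubiquitin ligases that lies within *Cdc5*, was otherwise. It had 23.8 and 30.7 FPKM in PARP1 KD, against 2.35 and 7.25 FPKM in control (2.42, adjusted p = 0.00486), and the sum with *Cdc5* still differed by 1.09. Of the 16 higher genes 9 overlap another gene, as do 29 of the 111 lower genes and 2675 of all 7308.

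Of the other 9 genes called higher, 8 rested on control 1, and the remaining one differed from both controls but could not be corrected for length. *hll* had 57.6 and 55.0 FPKM in PARP1 KD, against 2.25 and 45.0 FPKM in control, and differed from control 2 by 0.32. *CG9815* (0.35 against control 2) and *CG12378* (0.91 against control 2) had the same form, and the sum of *CG12378* with the overlapping *RhoGAP92B* differed by -0.07. *HP6*, a relative of heterochromatin protein HP1, had 169 and 178 FPKM in PARP1 KD, against 29.1 and 99.6 FPKM in control (1.66, limma adjusted p = 0.0254), and 0.79 against control 2. In these 4 genes control 1 was far below the other 3 libraries. The other 4, *eIF5*, *CG11042*, *CG34330* and *CG33462*, had groups that overlapped because control 2 was among the knockdowns. *eIF5*, a translation initiation factor with the largest fitted increase, had 98.8 and 77.4 FPKM in PARP1 KD, was listed at 0 in control 1 and had 97.7 FPKM in control 2. *CG3884*, for which no length was known, had 46.5 and 41.1 FPKM in PARP1 KD, against 8.06 and 16.6 FPKM in control (1.82, adjusted p = 0.0226), and it differed by 1.35 from the nearer control.

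**Figure D3:**
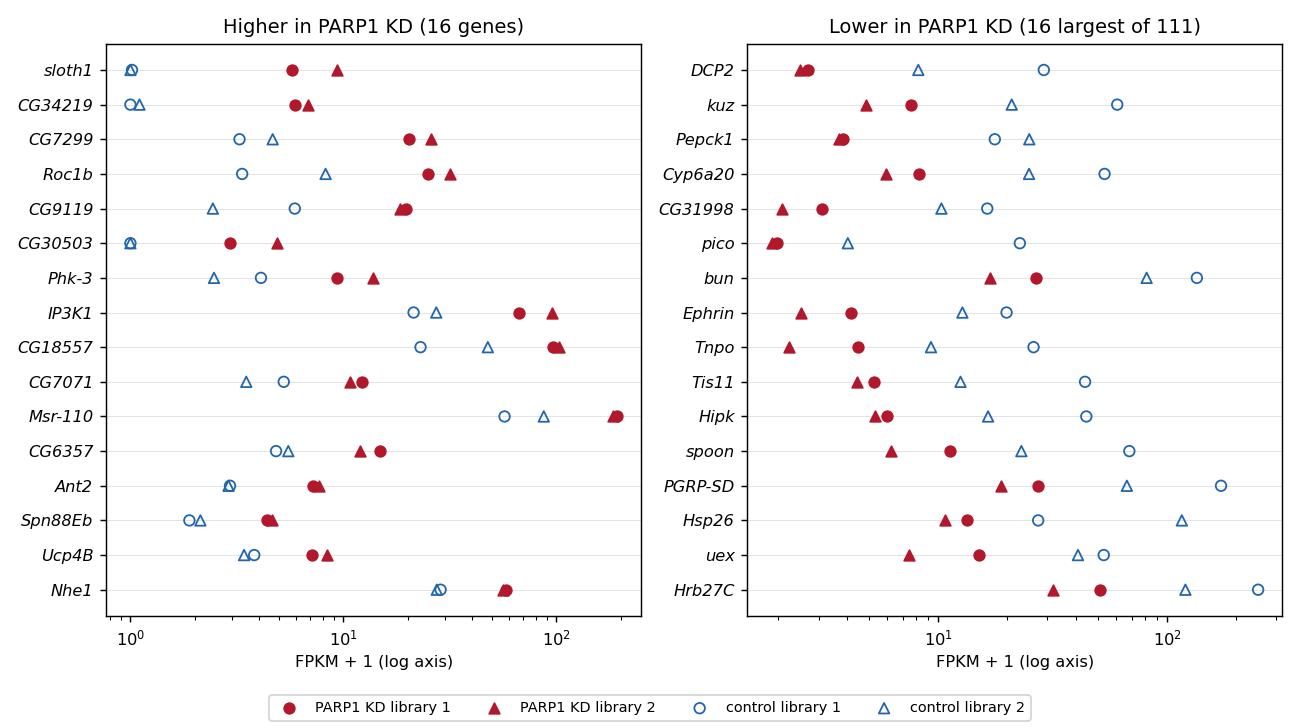
FPKM + 1 in each library (log axis) for the 16 genes that were higher and the 16 largest of the 111 genes that were lower in PARP1 KD against each control and after length correction, with PARP1 KD as filled and control as open symbols. In every row the filled symbols lie on 1 side of the open ones, and in *sloth1*, *CG34219* and *CG30503* the controls sit at an FPKM near 0.

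The 111 lower genes were led by *Pepck1* (2R:14424271-14426924), the enzyme that commits carbon to gluconeogenesis. It had 2.84 and 2.69 FPKM in PARP1 KD, against 16.7 and 24.0 FPKM in control. The difference was -2.48 (SE 0.49, limma adjusted p = 0.00337), and -2.23 against control 1, -2.73 against control 2 and -2.03 after length correction. *DCP2* and *kuz* had larger differences (-2.58 and -2.56), but these were wider apart between the controls. *kuz*, a membrane protease that cleaves Notch, had 6.60 and 3.84 FPKM in PARP1 KD, against 59.6 and 19.96 FPKM in control (adjusted p = 0.00284). *bun*, a TSC22 family regulator of growth, had 25.7 and 15.9 FPKM in PARP1 KD, against 134 and 80.5 FPKM in control (-2.31, adjusted p = 0.00151). *CG16971*, for which no length was known, had 19.7 and 13.9 FPKM in PARP1 KD, against 124 and 68.8 FPKM in control (-2.41, adjusted p = 0.00109).

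Some of the lower genes act in sugar metabolism or insulin signalling. These and the other single genes described beside the lists were picked from the lower genes after their values were seen, so they do not speak for their pathways. *Hex-A*, the hexokinase that starts glycolysis, had 9.13 and 6.99 FPKM in PARP1 KD, against 37.96 and 23.01 FPKM in control (-1.77, limma adjusted p = 0.0347). *Ald1*, the aldolase of the same pathway, had 73.7 and 54.5 FPKM in PARP1 KD, against 152 and 196 FPKM in control (-1.43, adjusted p = 0.037). Both were below each control, *Hex-A* further below control 1 and *Ald1* further below control 2. Of 13 glycolytic and lactate genes tested, 9 were lower (69.2%, against 34.8% of all genes) and 0 higher (against 10.7%) without overlap. *Hex-A* and *Ald1* were the 2 of the 13 that were called, against 1.67% of all genes. The median difference of the 13 was -0.45, against -0.29 over all genes. After length correction it was -0.16, against 0.02 over all genes. Apart from that list, *InR*, the insulin receptor, had 0.431 and 0.302 FPKM in PARP1 KD, against 7.67 and 2.28 FPKM in control (-1.97, adjusted p = 0.0168). *Pi3K21B*, a regulatory subunit of the kinase that the receptor engages, had 4.37 and 2.59 FPKM in PARP1 KD, against 23.7 and 11.9 FPKM in control (-2.02, adjusted p = 0.0222). *scyl*, which restrains growth through TOR, had 6.96 and 4.45 FPKM in PARP1 KD, against 28.1 and 19.2 FPKM in control (-1.88, adjusted p = 0.0278). *ImpL2*, a secreted protein that binds insulin-like peptides, had 77.6 and 68.9 FPKM in PARP1 KD, against 202 and 151 FPKM in control, and did not pass the test (-1.24, adjusted p = 0.0707).

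Single genes picked in the same way encode proteins that act on mRNA. *DCP2*, the enzyme that removes the mRNA cap, had 1.69 and 1.48 FPKM in PARP1 KD, against 27.9 and 7.19 FPKM in control (limma adjusted p = 0.00396). *Patr-1*, an activator of decapping, had 4.80 and 2.48 FPKM in PARP1 KD, against 23.7 and 9.97 FPKM in control (-1.87, adjusted p = 0.037). *Tis11*, which binds AU-rich elements and speeds mRNA decay, had 4.27 and 3.41 FPKM in PARP1 KD, against 42.8 and 11.5 FPKM in control (-2.28, adjusted p = 0.00984). In all 3 genes control 1 was at least 2-fold above control 2, and both controls were above the knockdowns. *Paip2*, an inhibitor of poly(A)-binding protein, was higher in control 2, with 19.7 and 11.6 FPKM in PARP1 KD, against 42.2 and 58.5 FPKM in control (-1.65, adjusted p = 0.0346). *Hrb27C*, an hnRNP that binds pre-mRNA, had 49.9 and 30.7 FPKM in PARP1 KD, against 249 and 119 FPKM in control (-2.11, adjusted p = 0.00245). Its partner *sqd* had 52.5 and 34.7 FPKM in PARP1 KD, against 246 and 65.0 FPKM in control (-1.55, adjusted p = 0.0455), but differed from control 2 by -0.59. These were the 2 genes called of 42 splicing factors tested, against 1.67% of all genes. Of the 42, 10 were higher (23.8%, against 10.7% of all genes) and 7 lower (16.7%, against 34.8%) without overlap. The median was -0.53 against control 1 and 0.19 against control 2, and over both it was -0.11, which turned to 0.21 after length correction, 0.28 after median centring and 0.13 after quantile normalization. Over all genes the median after these scalings was 0.02, 0.11 and 0.03. *SNRPG*, a component of the spliceosomal Sm ring, was above both controls without being called. It had 329 and 325 FPKM in PARP1 KD, against 196 and 216 FPKM in control (0.66, adjusted p = 0.44).

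Heat shock genes were lower as a list. Of 23 heat shock proteins and cochaperones tested, 18 were lower (78.3%, against 34.8% of all genes) and 0 higher (against 10.7%) without overlap. Of the 23, 6 were called (against 1.67% of all genes) and 8 were among the 111 (against 1.57% of genes with a length). After length correction 13 were lower and 1 higher without overlap, against 24.9% and 23.7% of all genes. The median difference was -0.69, against -0.29 over all genes, and -0.30 after length correction (0.02 over all genes). It was -0.9985 against control 1 and -0.74 against control 2. The small heat shock proteins, which hold unfolded proteins in solution, lie side by side on 3L. *Hsp26* (3L:9369517-9370527) had 12.3 and 9.76 FPKM in PARP1 KD, against 26.4 and 115.1 FPKM in control (-2.23, limma adjusted p = 0.0071). *Hsp23* (3L:9374983-9375867) had 13.7 and 11.3 FPKM in PARP1 KD, against 26.2 and 97.0 FPKM in control (-1.94, adjusted p = 0.0198). *Hsp22* had 8.98 and 9.34 FPKM in PARP1 KD, against 23.6 and 48.3 FPKM in control (-1.78, adjusted p = 0.0317). These were highest in control 2, and the knockdowns were on average still at least 2-fold below control 1 on this scale. *Hsp27*, beside them, had 15.1 and 10.5 FPKM in PARP1 KD, against 31.3 and 34.3 FPKM in control, and was not called (-1.31, adjusted p = 0.127).

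The inducible *Hsp70* chaperone genes had the same form at lower levels. *Hsp70Bb* had 1.20 and 1.06 FPKM in PARP1 KD, against 4.21 and 11.6 FPKM in control (-1.93, limma adjusted p = 0.0254). *Hsp70Bc* (-1.82, adjusted p = 0.0317) and *Hsp70Bbb* (-1.77, adjusted p = 0.0401) were also called, while *Hsp70Ab* was not (-1.70, adjusted p = 0.0598). These copies are nearly identical, so the share of reads given to each is uncertain and they are not independent of each other. The chaperones that are made without stress differed less. *Hsc70-4*, the main cytosolic one, had 1068 and 909 FPKM in PARP1 KD, against 1817 and 1134 FPKM in control (-0.54, adjusted p = 0.582). *Hsp83*, the fly Hsp90, had 429 and 325 FPKM in PARP1 KD, against 1165 and 250 FPKM in control, so that the knockdowns lay between the controls.

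The 4 cytochrome P450 genes that limma called lie in a cluster on 2R. P450 enzymes oxidize hormones, lipids and foreign compounds. *Cyp6a20* (2R:10769624-10771551) had 7.25 and 4.92 FPKM in PARP1 KD, against 52.4 and 24.0 FPKM in control (-2.38, limma adjusted p = 0.00401). *Cyp6a17* (2R:10761476-10763064) had 15.3 and 10.8 FPKM in PARP1 KD, against 42.2 and 44.1 FPKM in control (-1.67, adjusted p = 0.033). *Cyp6a8* (2R:10774672-10776514) had 4.72 and 2.79 FPKM in PARP1 KD, against 12.4 and 19.5 FPKM in control (-1.83, adjusted p = 0.037). *Cyp6a9* (2R:10766860-10768877) had 1.24 and 0.876 FPKM in PARP1 KD, against 4.68 and 8.39 FPKM in control (-1.83, adjusted p = 0.0278). In all 4 the knockdowns were below both controls, which were nearly equal in *Cyp6a17*, and the differences after length correction were between -2.06 and -1.40. *Cyp6a23*, between them, was not called (-1.62, adjusted p = 0.0578). These 4 were the genes called among 36 P450 genes tested, against 1.67% of all genes. At an unadjusted p under 0.05, 12 of the 36 were lower, against 11.9% of all genes. Among the 111 lower genes were 6 of them, against 1.57% of genes with a length. Without overlap 15 were lower (41.7%) and 3 higher (8.33%), and only these shares were near those of all genes (34.8% and 10.7%). The median of the 36 was -0.42 (-0.29 over all genes), and -0.24 against control 1 and -0.71 against control 2. After length correction it was -0.06, against 0.02 over all genes. *Cyp28d1*, on 2L, was among the 111 lower genes without being called (-1.47, adjusted p = 0.0783). Of 26 glutathione transferases, which couple such compounds to glutathione, 10 were lower (38.5%) and 2 higher (7.69%) without overlap, again near the shares of all genes. Limma called 0 of them (3 lower at an unadjusted p under 0.05), and the median was -0.45. Their lengths are short (median 858 bases), and genes between 500 and 1000 bases were lower in 9.62% and higher in 33.4% of cases. After length correction 12 of the 26 were lower and 0 higher without overlap, against 24.9% and 23.7% of all genes. The median was then -0.51, against 0.02 over all genes.

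Antimicrobial peptides had the largest fitted differences of all, and these came from control 1. The peptides are secreted upon infection and kill bacteria and fungi. *AttD* had 1.05 and 0.578 FPKM in PARP1 KD, against 419 and 1.32 FPKM in control (-4.12, limma adjusted p = 0.00605). *DptB* had 41.6 and 35.4 FPKM in PARP1 KD, against 5667 and 60.5 FPKM in control (-3.91, adjusted p = 0.00222). *AttA* had 5.09 and 4.45 FPKM in PARP1 KD, against 385 and 8.27 FPKM in control (-3.38, adjusted p = 0.00453). In these genes control 2 was close to the knockdowns and control 1 was far above all other libraries. *Def* was listed at 0 in both PARP1 KD libraries and had 60.7 and 0.345 FPKM in control. Of 15 peptide genes tested, 11 were called, against 1.67% of all genes. All 11 were lower, and the median of the 15 was -2.64. Against control 1 alone the median was -4.89 and against control 2 alone it was -0.14. Without overlap, 7 were lower (46.7%, against 34.8% of all genes) and 1 was higher (6.67%, against 10.7%). The higher gene was *CecC*, with 82.5 and 99.0 FPKM in PARP1 KD, against 55.8 and 78.7 FPKM in control.

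Upstream in the immune pathways 2 of 27 genes were called, against 1.67% of all genes. *PGRP-SD*, a secreted receptor for bacterial peptidoglycan, had 26.3 and 17.9 FPKM in PARP1 KD, against 171 and 65.8 FPKM in control. Its difference was -2.24 (limma adjusted p = 0.00245), -1.56 against control 2 and -2.41 after length correction. *PGRP-LF*, which dampens the Imd receptor, had 16.5 and 11.5 FPKM in PARP1 KD, against 41.04 and 32.1 FPKM in control and was not called (-1.34, adjusted p = 0.108). *pirk*, a feedback inhibitor of Imd, was called (-2.35, adjusted p = 0.0192), with 2.34 and 2.02 FPKM in PARP1 KD, against 45.1 and 4.67 FPKM in control, but its difference from control 2 was -0.84. The Imd receptor *PGRP-LC* was on the other side, with 29.5 and 26.4 FPKM in PARP1 KD, against 20.5 and 24.5 FPKM in control (0.30, adjusted p = 0.815). Of the 27 Imd and Toll genes tested, 14 were lower (51.9%, against 34.8% of all genes) and 3 higher (11.1%, near the 10.7% of all genes) without overlap. Their median was -0.55 (-0.29 over all genes), and -0.70 against control 1 and -0.28 against control 2. After length correction it was -0.16, against 0.02 over all genes. In JAK/STAT signalling, 1 of 12 genes was lower (8.33%, against 34.8% of all genes) and 1 higher (8.33%, against 10.7%) without overlap. Limma called 0 of the 12 (1 lower at an unadjusted p under 0.05).

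Single genes of actin and signalling were also among the lower genes. *ena*, which extends actin filaments, had 11.8 and 7.78 FPKM in PARP1 KD, against 49.5 and 22.5 FPKM in control (-1.70, limma adjusted p = 0.0431). It was the gene called of 41 adhesion and actin genes tested, against 1.67% of all genes. Of the 41, 19 were lower (46.3%, against 34.8% of all genes) and 2 higher (4.88%, against 10.7%) without overlap. Their median was -0.51 (-0.29 over all genes), and -0.11 after length correction (0.02 over all genes). *Rac2*, a GTPase of the cell edge, had 20.4 and 13.6 FPKM in PARP1 KD, against 53.9 and 35.9 FPKM in control (-1.35, adjusted p = 0.0939). *Pvf3*, a growth factor that binds the receptor Pvr on hemocytes, had 4.09 and 2.33 FPKM in PARP1 KD, against 22.0 and 8.17 FPKM in control (-1.82, adjusted p = 0.0448). It was the gene called of 20 hemocyte genes, against 1.67% of all genes. Of the 20, 9 were lower (45%, against 34.8% of all genes) and 0 higher (against 10.7%) without overlap. Their median was -0.26, close to the -0.29 of all genes, and 0.24 after length correction (0.02 over all genes). *Hipk*, a nuclear kinase, had 4.97 and 4.31 FPKM in PARP1 KD, against 43.4 and 15.5 FPKM in control (-2.27, adjusted p = 0.0081). *Smox*, the Smad of activin signalling, had 2.75 and 2.02 FPKM in PARP1 KD, against 22.4 and 6.43 FPKM in control (-1.97, adjusted p = 0.0297). *rl*, the fly ERK kinase, lies in the heterochromatin of chromosome 2 and was not called (-1.44, adjusted p = 0.0587), with 28.2 and 18.1 FPKM in PARP1 KD, against 51.7 and 77.2 FPKM in control.

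Genes of axon guidance were lower in 17 of 21 cases without overlap (81.0%, against 34.8% of all genes) and higher in 0 (against 10.7%). Their median was -0.77, and 2 genes were called (against 1.67% of all genes). These genes are long (median 4848 bases), and the median was -0.11 after length correction (0.02 over all genes). After it 10 of the 21 were still lower and 1 higher without overlap, against 24.9% and 23.7% of all genes. The 2 called were *Ephrin* and *aos*, and *Ephrin*, *Eph* and *PlexA* of the list lie on chromosome 4, described below. *aos*, a secreted inhibitor of the EGF receptor, had 40.8 and 31.6 FPKM in PARP1 KD, against 74.4 and 143 FPKM in control (-1.499, limma adjusted p = 0.037). In the ecdysone response, 8 of 13 genes were lower (61.5%, against 34.8% of all genes) and 2 higher (15.4%, against 10.7%) without overlap. Limma called 0 of them (6 lower at an unadjusted p under 0.05), and the median was -0.87, and -0.33 after length correction (0.02 over all genes). *EcR*, the ecdysone receptor, had 1.56 and 1.32 FPKM in PARP1 KD, against 6.35 and 3.86 FPKM in control (-1.29, adjusted p = 0.156). Its coactivator *tai* had 3.05 and 1.71 FPKM in PARP1 KD, against 12.2 and 7.71 FPKM in control (-1.69, adjusted p = 0.0571).

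The genes of chromosome 4 were lower as a group. Chromosome 4 is the small dot chromosome of the fly, which is rich in heterochromatin although many of its genes are active. Of its 53 genes tested, 43 were lower without overlap (81.1%, against 34.8% of all genes) and 0 were higher (against 10.7%). The median difference was -0.99, against -0.28 on X and the arms of chromosomes 2 and 3. It was -1.08 against control 1 and -0.97 against control 2, so that it was about the same against either control. After length correction it was -0.55 on chromosome 4 and 0.02 on the other arms, after median centring -0.60 and after quantile normalization -0.66. Chromosome 4 genes are long, with a median of 3345 bases, but the difference was found in each class of length. Under 2000 bases the median was -0.51 on chromosome 4 (13 genes) and -0.09 elsewhere, from 2000 to 4000 bases -0.99 (19 genes) and -0.47, and over 4000 bases -1.31 (20 genes) and -0.61. The genes share 1 chromosome and are not independent replicates.

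**Figure D4:**
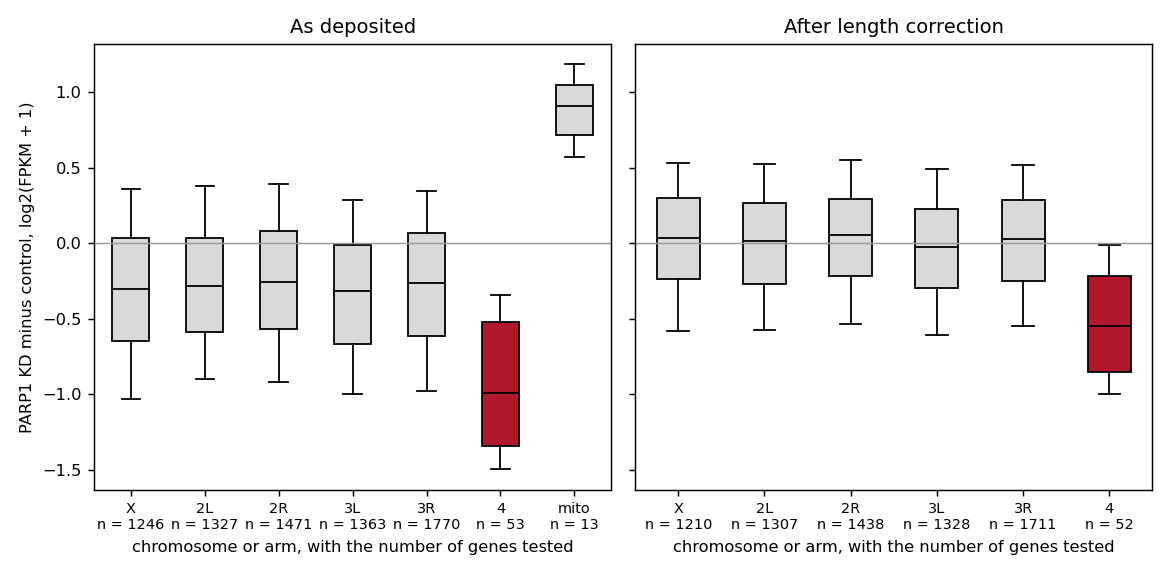
PARP1 KD minus control in log2(FPKM + 1) by chromosome or arm (x axis, with the number of genes tested; mito, mitochondrial genome), as deposited and after length correction. Boxes give the quartiles and median and whiskers the 10th and 90th percentiles, and the box of chromosome 4 (red) lies below the others in both panels, with medians of -0.99 and -0.55.

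On chromosome 4, 4 genes were called (against 1.67% of all genes) and 5 were among the 111 (against 1.57% of genes with a length). *Ephrin* (4:592382-598159), a membrane ligand in axon guidance, had 3.16 and 1.51 FPKM in PARP1 KD, against 18.9 and 11.8 FPKM in control (-2.30, limma adjusted p = 0.0071). Its receptor *Eph*, on the same chromosome, had 7.03 and 4.29 FPKM in PARP1 KD, against 19.3 and 15.5 FPKM in control (-1.49, adjusted p = 0.0983). *CG31998* (4:218503-226552) had 2.12 and 1.07 FPKM in PARP1 KD, against 15.4 and 9.33 FPKM in control (-2.36, adjusted p = 0.00532). *PMCA*, a calcium pump of the plasma membrane, had 24.3 and 15.8 FPKM in PARP1 KD, against 60.1 and 68.7 FPKM in control (-1.66, adjusted p = 0.026). *CG11360*, the remaining gene called, had 2.02 and 1.53 FPKM in PARP1 KD, against 9.32 and 6.82 FPKM in control (-1.70, adjusted p = 0.0482). In all 5 of these genes, of which *Eph* was not called, the controls were within 2-fold of each other and above the knockdowns. *pho*, a DNA-binding Polycomb group protein, had 15.3 and 9.49 FPKM in PARP1 KD, against 30.3 and 32.7 FPKM in control (-1.31, adjusted p = 0.129). *ATPsynbeta* had 226 and 131 FPKM in PARP1 KD, against 497 and 319 FPKM in control (-1.21, adjusted p = 0.0851), and was the only member of 14 ATP synthase genes that was lower without overlap. Of 65 genes assigned to other heterochromatin or to no chromosome, 20 were lower (30.8%, against 34.8% of all genes) and 11 higher (16.9%, against 10.7%) without overlap, with a median of -0.23. Their median was -0.08 against control 1 and -0.43 against control 2. After length correction, possible for 40 of them, 15 were lower and 2 higher, with a median of -0.27.

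Among the lists with more higher than lower members were those of translation and respiration. Of 87 cytoplasmic ribosomal protein genes tested, 47 were higher without overlap (54.0%, against 10.7% of all genes) and 1 was lower (1.15%, against 34.8%). Limma called 0 of them, with 10 higher at an unadjusted p under 0.05. The median was 0.44, against -0.29 over all genes, 0.67 against control 1, 0.22 against control 2, 0.33 after length correction and 0.07 after quantile normalization. *RpL18* had 3302 and 4027 FPKM in PARP1 KD, against 2147 and 1400 FPKM in control (1.07, adjusted p = 0.17). *RpL34a* had 997 and 1226 FPKM in PARP1 KD, against 620 and 491 FPKM in control (adjusted p = 0.172), and does not overlap another gene. Most of these genes are short (median 708 bases), and the short genes as a whole, between 500 and 1000 bases, were higher in 33.4% of cases.

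Of 71 mitochondrial ribosomal protein genes, 37 were higher (52.1%, against 10.7% of all genes) and 3 lower (4.23%, against 34.8%) without overlap. Their median was 0.30, and 0.12 after length correction. They too are short (median 740 bases), and genes between 500 and 1000 bases were higher in 33.4% of cases. After length correction 19 of the 71 were higher and 7 lower without overlap, against 23.7% and 24.9% of all genes. Limma called 1 of the 71, against 1.67% of all genes, namely the exception *mRpS5*, which was lower. It had 48.1 and 27.4 FPKM in PARP1 KD, against 110 and 100.1 FPKM in control (-1.503, limma adjusted p = 0.0366). For the subunits of respiratory complex I, 19 of 33 were higher (57.6%) and 1 lower (3.03%) without overlap (median 0.36, and 0.23 after length correction). For complex IV, 9 of 11 were higher (81.8%) and 0 lower (median 0.63, and 0.27 after length correction over the 8 genes with a length). For ATP synthase 7 of 14 were higher (50%) and 1 lower (7.14%), with a median of 0.26, and 0.18 after length correction. Of all genes, 10.7% were higher and 34.8% lower. After length correction 17, 4 and 5 members of these lists were higher and 6, 1 and 3 lower without overlap. Limma called 0 genes in these 3 lists, with 1, 3 and 2 higher and 0, 0 and 1 lower at an unadjusted p under 0.05. *ATPsynE* had 429 and 460.1 FPKM in PARP1 KD, against 254 and 187 FPKM in control (1.03, adjusted p = 0.154). *COX7A* had 548 and 485 FPKM in PARP1 KD, against 306 and 307 FPKM in control (0.75, adjusted p = 0.36). The replicates of *COX7A* were close in both groups, and the knockdowns were above the controls by less than 2-fold.

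Transcripts of the mitochondrial genome itself were mostly higher too, by an amount that differed between the controls. Of 13 such genes, 8 were higher without overlap (61.5%, against 10.7% of all genes) and 0 lower (against 34.8%). Limma called 0 of them (7 higher at an unadjusted p under 0.05), and the median was 0.91. The complex IV list above includes those of these genes that encode its subunits. The median was 1.59 against control 1 and 0.35 against control 2. *ND4L* had 40.3 and 59.2 FPKM in PARP1 KD, against 14.7 and 21.4 FPKM in control (1.41, adjusted p = 0.0707). *ND3* had 2127 and 2846 FPKM in PARP1 KD, against 699 and 1506 FPKM in control (1.26, adjusted p = 0.0886). *COX1* had 4932 and 6430.3 FPKM in PARP1 KD, against 1677 and 5350 FPKM in control, with control 2 between the knockdowns.

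**Figure D5:**
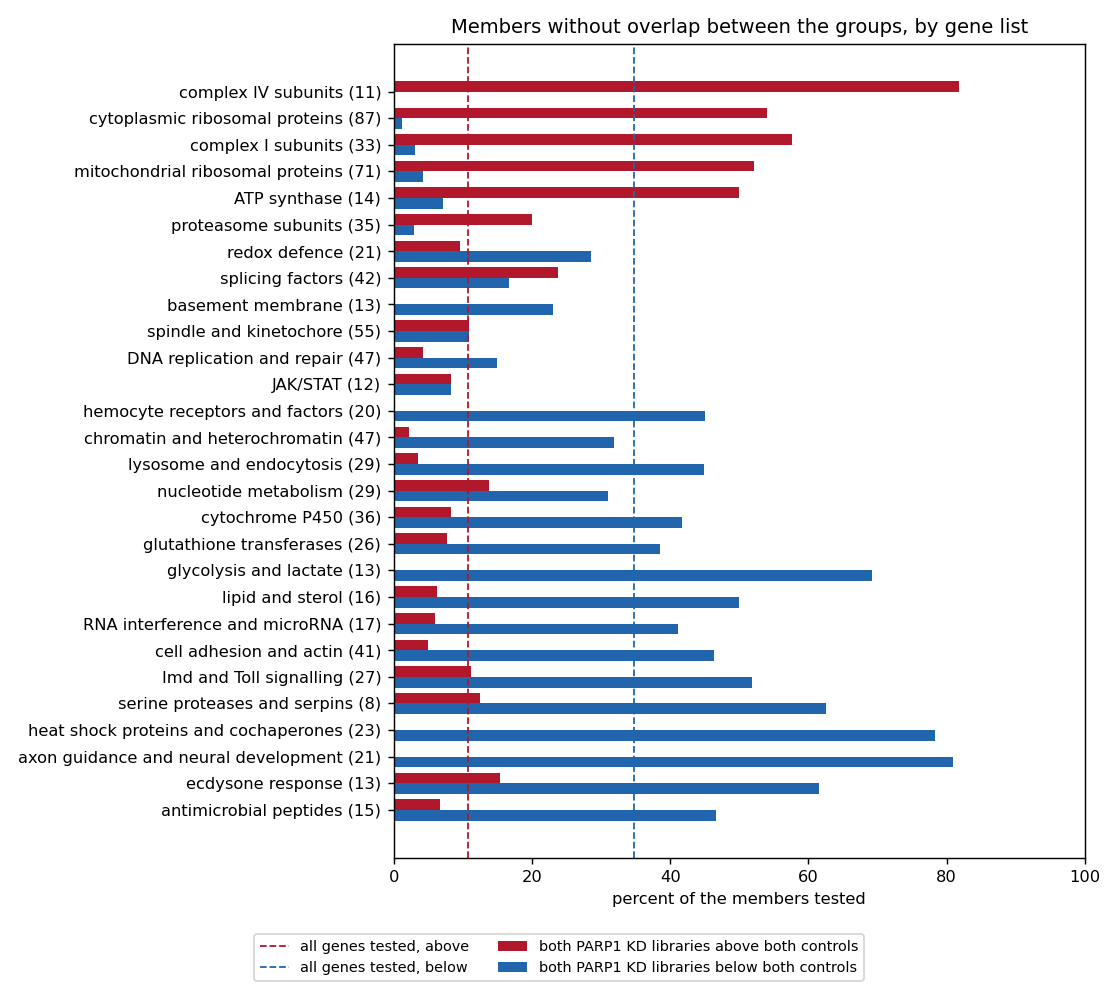
Percent of the tested members of each gene list (number in brackets) with both PARP1 KD libraries above (red) or below (blue) both controls, ordered by median difference, with the shares over all 7308 genes as dashed lines (10.7% above, 34.8% below). Ribosomal and respiratory lists stand at 50% or more above, and axon guidance (81.0%) and heat shock (78.3%) have the longest bars below.

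Genes of DNA replication and of the spindle were lower less often than the 34.8% of all genes, as counts with no test. Chromatin genes were lower about as often as all genes. Of 47 DNA replication and repair genes, 7 were lower (14.9%) and 2 higher (4.26%) without overlap. Of 55 spindle and kinetochore genes 6 were lower (10.9%) and 6 higher (10.9%). Of 47 chromatin genes 15 were lower (31.9%) and 1 higher (2.13%). The share higher over all genes was 10.7%. Limma called 0 genes in these lists, with 1, 2 and 5 lower and 0 higher at an unadjusted p under 0.05. Their medians of -0.16, -0.14 and -0.32 turned to 0.09, 0.15 and 0.12 after length correction (0.02 over all genes). They were -0.55, -0.55 and -0.88 against control 1 and 0.14, 0.09 and 0.02 against control 2. Of 29 nucleotide metabolism genes, 9 were lower (31.0%) and 4 higher (13.8%) without overlap, near the shares of all genes (34.8% and 10.7%). Limma called 0 of them (2 lower at an unadjusted p under 0.05), and their median of -0.36 turned to 0.04 after median centring (0.11 over all genes). *awd*, a nucleoside diphosphate kinase, had 2905 and 2806 FPKM in PARP1 KD, against 2187 and 1435 FPKM in control (0.69, limma adjusted p = 0.463). Of 35 proteasome subunits, 7 were higher (20%, against 10.7% of all genes) and 1 lower (2.86%, against 34.8%) without overlap. Limma called 0 of them (0 at an unadjusted p under 0.05). Their median was 0.15, and -0.15 against control 1 and 0.65 against control 2.

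The cells of the knockdown had taken up dsRNA, and the genes that process it were therefore also counted. Of 17 genes of RNA interference and microRNA pathways, 7 were lower (41.2%, against 34.8% of all genes) and 1 higher (5.88%, against 10.7%) without overlap. Limma called 0 of the 17 (3 lower at an unadjusted p under 0.05). Their median was -0.51 (-0.29 over all genes), and -0.05 after length correction (0.02 over all genes). *AGO2*, the Argonaute protein that cleaves targets of dsRNA, had 51.4 and 43.4 FPKM in PARP1 KD, against 163 and 52.7 FPKM in control (-0.96, adjusted p = 0.282), and control 1 alone stood apart. *AGO1*, the Argonaute of microRNAs, had 6.75 and 5.12 FPKM in PARP1 KD, against 32.4 and 9.60 FPKM in control (-1.45, adjusted p = 0.136). Both knockdowns were below both controls in both genes, and in both the distance to control 2 was the smaller.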

How the data were processed

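Total RNA was sequenced as paired-end reads on an Illumina HiSeq instrument. The authors mapped the reads to the dm3 build with TopHat2 2.0.10 and Bowtie2 2.1.0.0 after CASAVA, and Cufflinks 2.1.1 with Cuffdiff and a FlyBase annotation gave the deposited FPKM values per transcript. FPKM divides by transcript length and library size, so that a shift in a few abundant genes or in the length of captured fragments moves all other values. No counts were used here, and the depth per library is known only relative to control 1.

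The FPKM of the transcripts of each CG number were summed, and a gene was kept if the 4 libraries averaged 1 FPKM or more. A gene low in 1 group could thus pass through the other alone, as *sloth1*, *CG34219* and *CG30503* did through PARP1 KD and *InR* and *Def* through control. log2(FPKM + 1) was fitted with limma 3.58.1 (R 4.3.3, intensity trend, Benjamini-Hochberg, threshold 0.05) on PARP1 KD and control only. A test of 1 value cannot serve with 2 libraries a group, since the smallest exact permutation p (two-sided) is 0.333. Length is the median over a gene's transcripts in the Ensembl BDGP6 annotation, used for lengths only and known for 97.0% of tested genes. A loess curve on the logarithm of length (span 0.3) was fitted to each library's deviation from the gene's mean and removed. Symbols were those of RefSeq (13085 of 14012 genes matched). Coordinates were taken from the deposited table, where genes that overlap on either strand were counted as overlapping. Tables and figures were made with Python 3.11.15, numpy 2.4.6, pandas 2.3.3 and matplotlib 3.10.9, and the fit was tested on simulated data. Genes were named from *Parp1*, *Parg* and *Tnks*, from the 15 largest called changes without overlap in each direction (filled up, where fewer were called, by genes that differed 2-fold from each control and after length correction), from the 10 widest gaps between the groups in each direction, and from up to 4 members of a list in each direction or members that define it. Further genes among the 127 that differed from each control and after length correction were named after their values were seen, as were *AGO1* and *AGO2*. The comparison, its members and the lists were chosen with earlier results of these data known. The sums over overlapping genes were added after seeing the data. The labels do not say whether the libraries came from separate cultures.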

Additional observations from a re-analysis of the deposited data

How the results depend on the processing

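The number of genes called by limma depended strongly on the settings. Against 122 calls (19 higher, 103 lower), there were 184 with a pseudocount of 0.1, 8 with a pseudocount of 5, 75 without the intensity trend, 23 with the filter over all 6 libraries and 17 on transcript rows (16 higher, 1 lower). There were 0 with all genes above 0 kept, with all 6 libraries fitted, and after quantile normalization, median centring or length correction, where 932, 215, 854, 854 and 790 genes had an unadjusted p under 0.05. Without adjustment 979 genes passed. Leaving out each library in turn gave 9 to 2048 calls: 14 without PARP1 KD library 1, 9 without PARP1 KD library 2, 392 without control 1 and 2048 without control 2. The 782 genes higher without overlap became 1362 with all genes above 0, 1844 after quantile normalization, 2175 after median centring, 1681 after length correction and 1385 on transcript rows, and 848 to 2328 with each library left out. The 2545 genes lower became 1469 after median centring, and 2575 to 4915 with each library left out. The 774 genes with a 2-fold difference became 319 with a pseudocount of 5, 487 after quantile normalization, 319 after length correction and 2441 on transcript rows, and 470 to 1866 with each library left out. Fewer libraries make an absence of overlap easier by construction. The cause of the other shifts was not tested.

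*Parp1* passed the limma threshold with a pseudocount of 0.1 (-1.58, adjusted p = 0.0457), among genes of at least 5 FPKM (-1.51, adjusted p = 0.0295) and when no adjustment was made (-1.51), and its difference was -1.90 to -1.13 with each library left out, passing without control 2. Over these alternatives its adjusted p was 0.000296 to 0.9998. Of 37 named genes, 34 lost their limma call after quantile normalization or median centring, and the other 3 had no call to lose. After length correction 31 lost it and 0 kept one, while genes without a known length could not be followed. With a pseudocount of 5, 28 lost their call, as did 6 without the intensity trend and 0 with a pseudocount of 0.1. *Tnks* (0.025) and *Parg* (0.047) changed sign after length correction, and *Parg* did so without control 1 (0.024, against -0.86 without control 2). Of 29 list medians, 20 kept their sign after length correction, 18 after median centring, 23 after quantile normalization and 24 without control 1. No paired analysis was possible because the columns carry no pairing between PARP1 KD and control libraries. Depth per library is known only in relative terms, so genes near 1 FPKM have an unknown counting error.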
